A study of Mus musculus with 16 samples.

Results

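The genes described here are 9 direct targets and feedback regulators of canonical Wnt signalling: Axin2, Sp5, Nkd1, Lgr5, Notum, Apcdd1, Rnf43, Znrf3 and Cdx1. They were taken by name from a mouse RNA-seq count table of 34042 genes, and earlier results of these data were known when they were chosen. All 9 were among the 18555 genes that passed the filter on low counts, Cdx1 only through its ES libraries. They were followed across 16 libraries of cultured pluripotent cells in 4 media. Formative stem cells (FS, n = 6) were grown in A3XR medium and came from line 5ar1 (replicates 1 to 3, at passages 10, 12 and 14) and line 5ar3 (replicates 4 to 6, at passages 12, 4 and 5). Epiblast stem cells (EpiSCs) came from line AF32 in AF medium (EpiSC_AF, n = 3, passages 13, 14 and 15) and from line AFX6 in AFX medium (EpiSC_AFX, n = 3, passages 12, 5 and 8). Naive embryonic stem cells (ES, n = 4) were line E14IV-C in 2iL medium at passages 12, 13, 15 and 20. The labels name the media by these short forms only, and the meanings given here come from general knowledge of the field. In these media A stands for activin and F for FGF2. The labels do not say what the 3 in A3XR stands for. The letter X stands for a tankyrase inhibitor that stabilises Axin and so damps Wnt signalling, and R for a compound that represses retinoic acid receptors. The name 2iL stands for a GSK3 inhibitor, a MEK inhibitor and LIF. The replicates are passages of a line, so each p-value below measures the spread between passages. In the fits by group FS pools both lines, and the spread of a gene is estimated over all libraries of a fit together. The difference between the lines thus enters every p-value from the 16 libraries by group, also where FS is not compared. Outside FS each medium was represented by 1 line. No line was grown in more than 1 medium, so medium and line cannot be told apart in any comparison of groups, those with FS included.

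In canonical Wnt signalling, a destruction complex built on Axin and Apc holds GSK3, which marks beta-catenin for degradation. A Wnt ligand bound to Frizzled and Lrp5 or Lrp6 disables the complex, and beta-catenin then enters the nucleus and works through Tcf and Lef factors. A GSK3 inhibitor bypasses the ligand, whereas a tankyrase inhibitor keeps the complex active. Many of the genes switched on by the pathway feed back on it. Axin2 is a scaffold of the destruction complex, Nkd1 binds Dishevelled, and the ubiquitin ligases Rnf43 and Znrf3 clear Frizzled from the cell surface. Notum is a secreted enzyme that removes the lipid of Wnt proteins, Apcdd1 is a membrane inhibitor, and Lgr5 is a receptor for R-spondins, which restrain Rnf43 and Znrf3. Sp5 and Cdx1 are transcription factors. In the early embryo Wnt signalling is known for its part in forming the primitive streak, and in culture GSK3 inhibition helps to keep ES cells naive.

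Each library held 22069338 to 33290250 counts assigned to genes. The mitochondrial ribosomal RNA mt-Rnr2 took 9.96% to 25.0% of them outside ES replicate 1, where it took 38.1%. The marker genes went with the labels: the summed level of 6 naive genes was 2190 to 3394 CPM (normalised counts scaled to a common library size of 1000000) in ES and 4.57 to 13.1 CPM elsewhere. The summed level of 4 formative and primed epiblast genes was 834 to 2246 CPM outside ES and 39.6 to 103 CPM in ES. Markers of differentiating cells were also present. The sum of 6 endoderm genes was 247 to 727 CPM in EpiSC_AF, 1.69 to 153 CPM in EpiSC_AFX, 0.510 to 10.8 CPM in FS and 4.63 to 7.93 CPM in ES. EpiSC_AF also had the highest sums of 6 primitive streak and mesoderm genes, 113 to 302 CPM, against 14.8 to 37.5 CPM in EpiSC_AFX. The sum of 5 neural genes was highest in FS, at 85.3 to 165 CPM, against 33.9 to 56.2 CPM in EpiSC_AF, 36.8 to 57.1 CPM in EpiSC_AFX and 16.1 to 71.2 CPM in ES. Most of the FS sum came from Tubb3, at 59.1 to 97.8 CPM, and the neural genes did not all share its order. Sox1 stood at 1.05 to 1.31 CPM in line 5ar1 and 18.5 to 27.3 CPM in line 5ar3, against 3.57 to 10.4 CPM in EpiSC_AF. In bulk RNA, fewer cells that express a gene and less RNA of it per cell cannot be told apart, and this holds for every level below.

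Sp5 and Axin2 are the 2 genes that edgeR called between EpiSCs with and without X, and the 250 bases before their start sites are shown because they hold the proximal promoters. Both lie on the plus strand of GRCm38 and were taken from RefSeq, Sp5 at chr2:70474673-70474922 and Axin2 at chr11:108920099-108920348. Capitals mark matches to 4 sequences of the kind that Tcf and Lef factors are known to bind, searched on both strands. The first is CTTTGAA, the second is CTTTGAT, another is CTTTGTA and the last is CTTTGTT.
Sp5: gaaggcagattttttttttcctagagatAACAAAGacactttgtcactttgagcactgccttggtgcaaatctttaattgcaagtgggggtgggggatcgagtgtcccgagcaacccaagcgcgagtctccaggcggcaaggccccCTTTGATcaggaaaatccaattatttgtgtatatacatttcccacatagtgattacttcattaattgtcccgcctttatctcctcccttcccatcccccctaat
Axin2: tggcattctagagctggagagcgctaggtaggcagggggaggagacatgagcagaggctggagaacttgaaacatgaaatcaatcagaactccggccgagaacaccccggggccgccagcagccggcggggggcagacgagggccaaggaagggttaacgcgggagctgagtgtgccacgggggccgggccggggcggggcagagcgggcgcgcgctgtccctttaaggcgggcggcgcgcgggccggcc
The Sp5 window held 2 matches that do not overlap, CTTTGTT on the opposite strand beginning 222 bases before the start site and CTTTGAT on the given strand beginning 104 bases before it. These letters are not in the Axin2 window. Of 32851 RefSeq promoter windows of the same 250 bases, 14.8% held at least 1 match and 1.43% held at least 2.

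The 9 loci are spread over several chromosomes, and 4 of them share chromosome 11. On GRCm38 (mm10), Axin2 spans chr11:108920349-108950783, Notum chr11:120653788-120661175, Rnf43 chr11:87662722-87735539 and Znrf3 chr11:5276324-5444847. Sp5 spans chr2:70474923-70477729, Nkd1 chr8:88521354-88594884 and Lgr5 chr10:115450311-115587780. The counts of each gene were taken over its exons. Notum shares 708 and 210 exonic bases with the antisense genes Notumos and Myadml2os, and Axin2 shares 209 with the antisense gene Gm11670. The strand setting of the counting is not given in the sources used here. Reads over the shared bases can thus not be assigned to Notum or Axin2 rather than to their antisense partners. Notumos and Myadml2os are among the counted genes, and their counts were not compared here, while Gm11670 is not among them.

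**Figure D1:**
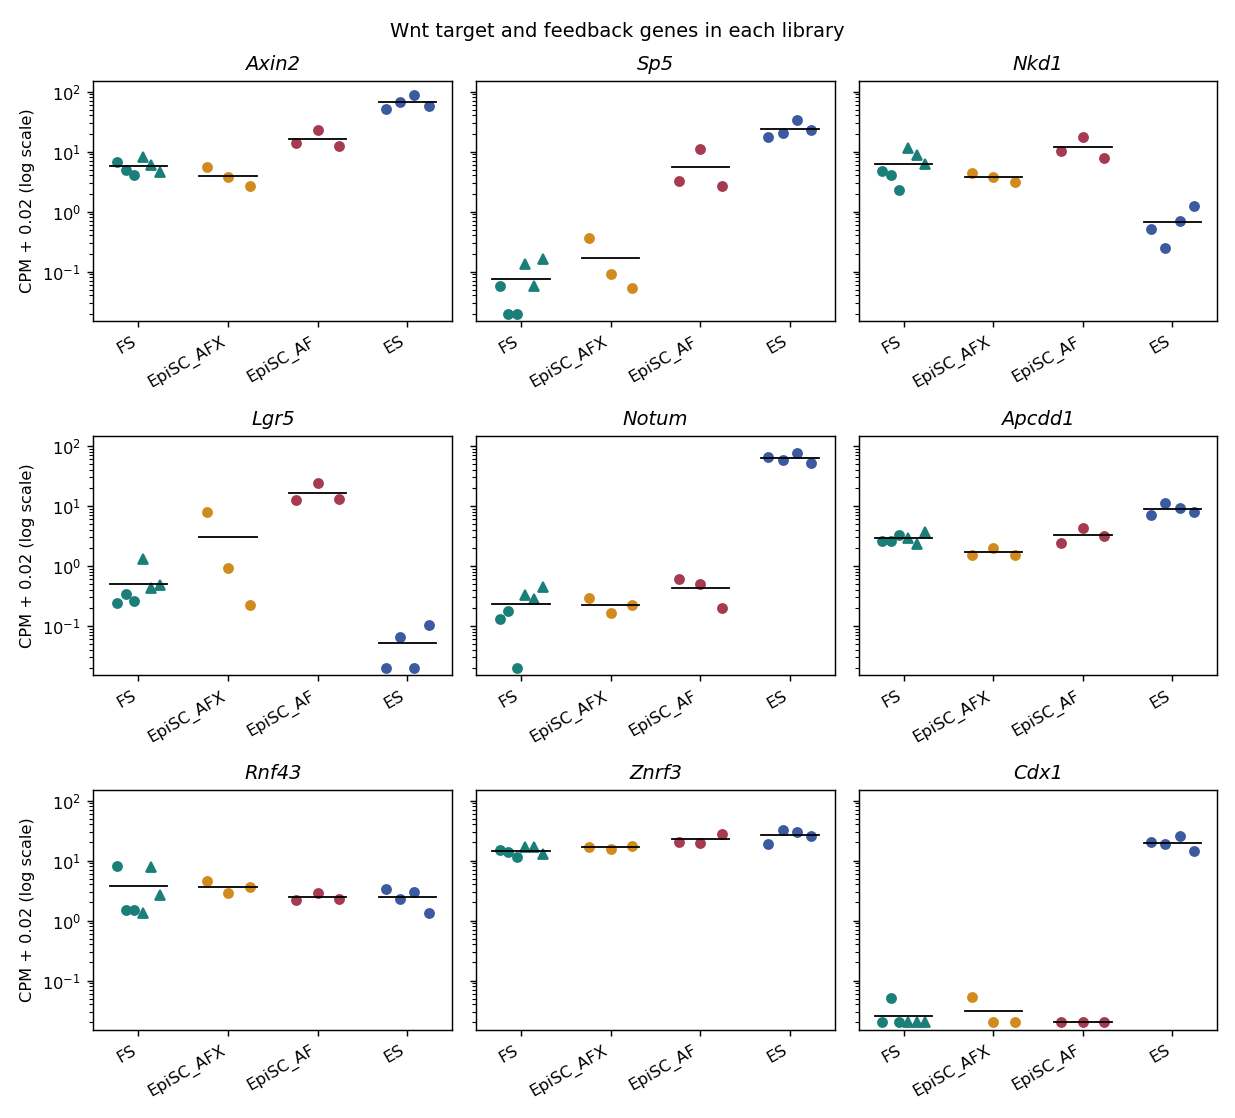
Level of each of the 9 genes in every library, in CPM plus 0.02 on a log scale, by group. Points are libraries (triangles, FS line 5ar3) and bars are group means. Notum and Cdx1 are high in ES and near 0 elsewhere, Lgr5 and Nkd1 are highest in EpiSC_AF, and the group means of Rnf43 lie between 2.45 and 3.81 CPM.

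Axin2, the scaffold that is often read as a gauge of Wnt activity, was present in every library. It stood at 51.7, 66.4, 88.5 and 57.0 CPM in ES and at 14.1, 22.7 and 12.2 CPM in EpiSC_AF. It stood at 5.50, 3.75 and 2.61 CPM in EpiSC_AFX, and in FS it ran from 4.03 to 7.99 CPM with a median of 5.51 CPM. The groups thus lay in the order ES, EpiSC_AF, FS and EpiSC_AFX, and only FS and EpiSC_AFX overlapped.

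Sp5, a zinc finger factor of the Sp family, had the same order for its upper groups and a far wider range. Its levels were 17.3, 20.5, 33.9 and 22.5 CPM in ES and 3.21, 10.9 and 2.62 CPM in EpiSC_AF. EpiSC_AFX held 0.337, 0.0714 and 0.0339 CPM, which are 10, 2 and 1 counts. The 6 FS libraries held 8 counts in all, between 0 and 3 each, with a median of 0.0370 CPM. Sp5 was thus near the limit of detection in both media that hold X.

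Cdx1, a homeobox factor of the caudal family, was an ES gene in this series. It stood at 20.04, 18.6, 25.1 and 14.5 CPM in ES. The other 12 libraries held 2 counts of Cdx1 in all, 1 in FS replicate 2 and 1 in EpiSC_AFX replicate 1, and EpiSC_AF held 0. A sum of 0 counts over the EpiSC_AF libraries allows up to 3 counts, or 0.0333 CPM, for counting error only.

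Lgr5, the R-spondin receptor, was highest in EpiSC_AF and lowest in ES. It stood at 12.7, 24.4 and 13.02 CPM in EpiSC_AF and at 0, 0.0452, 0 and 0.0850 CPM in ES, where the 4 libraries held 3 counts in all. The 3 EpiSC_AFX libraries were far apart at 7.99, 0.893 and 0.203 CPM. FS ran from 0.222 to 1.29 CPM with a median of 0.362 CPM and overlapped the lower end of EpiSC_AFX.

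The ligases Rnf43 and Znrf3 act at the same step but were at different levels. Znrf3 stood at 20.7, 19.3 and 27.7 CPM in EpiSC_AF, at 17.1, 15.6 and 17.1 CPM in EpiSC_AFX, and at 18.8, 32.2, 29.6 and 25.9 CPM in ES. In FS it ran from 11.3 to 17.0 CPM with a median of 14.2 CPM, which gave FS the lowest mean and ES the highest. Rnf43 stood at 2.22, 2.84 and 2.30 CPM in EpiSC_AF, at 4.45, 2.89 and 3.63 CPM in EpiSC_AFX, and at 3.32, 2.26, 2.96 and 1.32 CPM in ES. FS held both the highest and nearly the lowest Rnf43 levels: 7.97 and 7.92 CPM in replicates 1 and 5, which belong to different lines, and 1.33 to 2.64 CPM in the other 4.

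Nkd1, the Dishevelled-binding inhibitor, was lowest in ES, at 0.484, 0.226, 0.683 and 1.23 CPM. It stood at 10.2, 17.8 and 7.82 CPM in EpiSC_AF and at 4.45, 3.78 and 3.12 CPM in EpiSC_AFX. FS ran from 2.27 to 11.5 CPM with a median of 5.45 CPM and overlapped both. All 12 other libraries lay above the 4 ES libraries.

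Of the inhibitors that act outside the cell or at its membrane, Notum stood at 66.2, 57.9, 76.5 and 52.9 CPM in ES. It reached no more than 0.579 CPM in any other library: 0.579, 0.490 and 0.177 CPM in EpiSC_AF, 0.270, 0.143 and 0.203 CPM in EpiSC_AFX, and 0 to 0.424 CPM in FS with a median of 0.209 CPM. Apcdd1 varied less, at 6.98, 11.2, 9.25 and 7.99 CPM in ES, 2.38, 4.22 and 3.15 CPM in EpiSC_AF, and 1.52, 2.00 and 1.53 CPM in EpiSC_AFX. FS ran from 2.32 to 3.67 CPM with a median of 2.76 CPM, overlapping EpiSC_AF and above all EpiSC_AFX libraries.

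Per kilobase of exon, which allows levels of different genes to be set side by side, ES and the other cells had different leading genes. In ES the mean level was 26.3 CPM per kb for Notum, 11.97 for Axin2, 11.2 for Sp5, 11.2 for Cdx1 and 3.37 for Znrf3. In EpiSC_AF the leading 4 genes were close together, at 2.97 CPM per kb for Axin2, 2.86 for Znrf3, 2.65 for Sp5 and 2.62 for Nkd1, with Lgr5 at 1.63. In EpiSC_AFX Znrf3 led at 2.103 CPM per kb, before Nkd1 at 0.830 and Axin2 at 0.718. FS had the same leading 3 genes, Znrf3 at 1.83, Nkd1 at 1.37 and Axin2 at 1.04 CPM per kb.

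Comparing EpiSC_AFX with EpiSC_AF asks what the genes do in EpiSCs kept with or without the Wnt inhibitor. Sp5 was lower with X by a factor of 36.4 and Axin2 by a factor of 4.13, on the fitted scale. Axin2 had a mean of 3.95 ± 1.45 CPM (SD, n = 3) in EpiSC_AFX and 16.3 ± 5.63 CPM (SD, n = 3) in EpiSC_AF, a log2 fold change of -2.05 (95% interval -2.72 to -1.37, adjusted p = 0.00107, edgeR). Sp5 had a mean of 0.148 ± 0.165 CPM (SD, n = 3) against 5.57 ± 4.61 CPM (SD, n = 3), a log2 fold change of -5.18 (95% interval -6.72 to -3.65, adjusted p = 3.83e-04, edgeR). Sp5 had the 25th lowest fold change of all 18555 genes tested and Axin2 the 540th. Of the 9 genes 2 were called at an adjusted p under 0.05, both lower, where 4.26% of all genes were called, 2.83% lower and 1.43% higher. In 7 of the 9 genes the libraries of the groups did not overlap, against 33.9% of all genes. The median log2 fold change was -1.01 over the 9 genes, -1.33 over the 8 genes above the floor of 3 summed counts in either group, and 0 over all genes tested.

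Among the 7 genes that were not called, Nkd1, Lgr5, Apcdd1 and Znrf3 were also lower in every EpiSC_AFX library than in any EpiSC_AF library. Nkd1 had a log2 fold change of -1.66 (95% interval -2.75 to -0.57, adjusted p = 0.0841, edgeR), and Apcdd1 one of -0.95 (95% interval -1.54 to -0.36, adjusted p = 0.0649, edgeR). DESeq2 called both, at adjusted p = 0.0256 for Nkd1 and 0.0141 for Apcdd1, and a fit on these 6 libraries alone called Nkd1 (adjusted p = 0.0112, edgeR). Lgr5 had a log2 fold change of -2.46 (95% interval -4.23 to -0.69, adjusted p = 0.117, edgeR). Without EpiSC_AFX replicate 1 the Lgr5 difference was -4.92 (adjusted p = 0.00181, edgeR), so 1 library decided this call. Znrf3 had a log2 fold change of -0.44 (95% interval -0.88 to -0.01, adjusted p = 0.278, edgeR) and Notum, at 18 and 38 counts in all, one of -1.01 (95% interval -2.25 to 0.24, adjusted p = 0.410, edgeR). Rnf43 was the exception in direction, higher in every EpiSC_AFX library, with a log2 fold change of 0.57 (95% interval -0.73 to 1.88, adjusted p = 0.714, edgeR), or -0.048 with passage as a covariate. Cdx1 was at or under 1 count in both groups, and no fold is given.

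**Figure D2:**
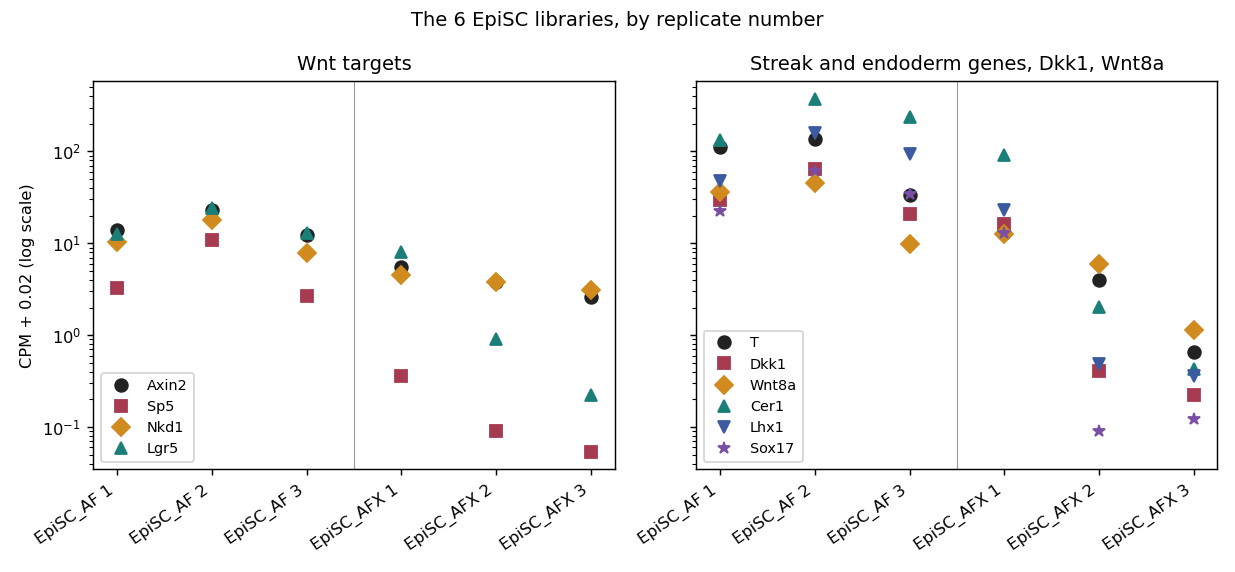
Levels in the 6 EpiSC libraries, in CPM plus 0.02 on a log scale: Axin2, Sp5, Nkd1 and Lgr5 on the left, and T, Dkk1, Wnt8a, Cer1, Lhx1 and Sox17 on the right. Each point is 1 library. EpiSC_AFX replicate 1 has Lgr5 at 7.99 CPM and Cer1 at 91.0 CPM, near the EpiSC_AF libraries, whereas its Axin2 of 5.50 CPM and Sp5 of 0.337 CPM lie below all 3 of them.

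The EpiSC libraries differed within each medium, and most of the genes were highest in the same library of a medium. Of the 8 genes above the floor, 6 were highest in EpiSC_AF replicate 2 among the EpiSC_AF libraries (Axin2, Sp5, Nkd1, Lgr5, Apcdd1 and Rnf43), and 6 were highest in EpiSC_AFX replicate 1 among the EpiSC_AFX libraries (Axin2, Sp5, Nkd1, Lgr5, Notum and Rnf43). In EpiSC_AF, Notum was highest in replicate 1 and Znrf3 in replicate 3. In EpiSC_AFX, Apcdd1 was highest in replicate 2 and Znrf3 in replicate 3. The share of all genes that were highest in these libraries is not given here. Leaving out EpiSC_AF replicate 2 gave Sp5 a log2 fold change of -4.25, and leaving out EpiSC_AFX replicate 1 gave -6.61. Both calls were kept when any 1 of the 6 libraries was left out, and Axin2 then ranged from -2.36 to -1.73.

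Markers of streak and endoderm, which EpiSCs can form in culture, moved with the same libraries. The endoderm sum was 727 CPM in EpiSC_AF replicate 2, against 247 and 431 CPM in replicates 1 and 3, and it was 153 CPM in EpiSC_AFX replicate 1, against 4.71 and 1.69 CPM in replicates 2 and 3. Cer1, a secreted antagonist made by endoderm, stood at 134, 375 and 235 CPM in EpiSC_AF and at 91.0, 2.00 and 0.407 CPM in EpiSC_AFX. The 6 endoderm markers had a median log2 fold change of -3.08 between the media. All 6 had an unadjusted p under 0.05 (edgeR), and 0 were called by edgeR. DESeq2 also called 0, but a gene to which it gave no adjusted p was counted there as not called. Of the streak and mesoderm markers, 3 of the 5 tested were called lower in EpiSC_AFX, and the mesoderm factor Mesp1 was at or under 0.327 CPM in all 6 libraries. The sum of 7 fibroblast markers was 43.6 to 81.7 CPM in EpiSC_AF and 11.3 to 22.3 CPM in EpiSC_AFX, with 5 of its 6 tested genes called (4 lower and 1 higher in EpiSC_AFX) and Lum at or under 0.131 CPM. Over all genes 2.83% were called lower in EpiSC_AFX and 1.43% higher. The part of these markers in the differences of Axin2 and Sp5 was not tested.

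Genes of chromosome 11, which holds Axin2, Notum, Rnf43 and Znrf3, were lower as a whole against EpiSC_AF. The median log2 fold change of its 1396 tested genes was -0.42 in EpiSC_AFX against EpiSC_AF, where genes elsewhere had a median of 0.02. It was -0.39 in FS against EpiSC_AF and -0.29 in ES against EpiSC_AF, while FS against EpiSC_AFX gave 0.02 and ES against EpiSC_AFX and against FS gave 0.10 and 0.10. The Axin2 difference of -2.05 was larger than this shift and that of Znrf3, -0.44, was about its size. What part the shift has in either was not tested.

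The comparison of FS with EpiSC_AF sets formative cells, whose medium holds X, against EpiSCs without it. The media also differ in F and R, and the lines differ. Calls were made for 4 of the 9 genes, all lower in FS (Sp5, Lgr5, Axin2 and Znrf3). The background over the whole table was 16.6% called, 8.81% in this lower direction and 7.84% in the other. Sp5 was at 8 counts over the 6 FS libraries and 507 over the 3 EpiSC_AF libraries, a ratio of summed levels of 114 (95% counting interval 57.7 to 267). Its fitted log2 fold change was -6.68 (95% interval -8.02 to -5.33, adjusted p = 3.06e-06, edgeR), the 13th lowest of all genes tested, and -5.74 without EpiSC_AF replicate 2. Lgr5 had means of 0.491 ± 0.405 CPM (SD, n = 6) and 16.7 ± 6.65 CPM (SD, n = 3), with a log2 fold change of -5.09 (95% interval -6.64 to -3.53, adjusted p = 1.53e-04, edgeR), the 55th lowest. The same 4 genes were the ones whose libraries did not overlap, against 20.4% of all genes.

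Axin2 was lower in FS than in EpiSC_AF by a log2 fold change of -1.52 (95% interval -2.05 to -0.98, adjusted p = 5.44e-04, edgeR), with means of 5.72 ± 1.51 CPM (SD, n = 6) and 16.3 ± 5.63 CPM (SD, n = 3). Znrf3 differed by -0.65 (95% interval -1.02 to -0.28, adjusted p = 0.0175, edgeR). The Znrf3 call was lost without EpiSC_AF replicate 3 (adjusted p = 0.146, edgeR), with line 5ar3 alone (0.0903) and when libraries were scaled by total counts (0.150), and its size is near that of the chromosome 11 shift given above. The remaining 5 genes were not called. Nkd1 had a log2 fold change of -0.94 (adjusted p = 0.146, edgeR), Notum -1.05 (0.174), Apcdd1 -0.17 (0.678) and Rnf43 0.63 (0.484), and Cdx1 was at the floor. With line 5ar1 alone Nkd1 and Notum were called lower than in EpiSC_AF, at adjusted p = 0.0137 and 0.0216 (edgeR). The median log2 fold change was -0.94 over the 9 genes, -0.995 over the 8 above the floor and 0.04 over all genes tested. All 6 endoderm markers and 4 of the 5 tested streak and mesoderm markers were called lower in FS, as were 5 of 6 fibroblast markers, with the sixth higher. Of the 5 neural markers 1 was called higher in FS. Over all genes 8.81% were called lower in FS and 7.84% higher. The part of these markers was not tested.

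FS and EpiSC_AFX, the media that both hold X, were compared to ask whether the genes differ between formative and primed cells under Wnt inhibition. These media differ in F and R, and the lines differ. Only Lgr5 was called, lower in FS, which is 1 gene of 9 where 5.00% of all genes were called and 2.10% were called in that direction. Its log2 fold change was -2.63 (95% interval -4.17 to -1.08, adjusted p = 0.0469, edgeR), yet the libraries overlapped and 1 library made the difference: without EpiSC_AFX replicate 1 it was -0.16 (adjusted p = 0.945, edgeR). That library also held the endoderm sum of 153 CPM. Of the 5 neural markers 2 were called higher in FS, where 2.89% of all genes were, and the part of these markers was not tested. Apcdd1 was higher in every FS library, with a log2 fold change of 0.77 (95% interval 0.25 to 1.30, adjusted p = 0.0836, edgeR; 0.0257 by DESeq2), and was the 1 gene whose libraries did not overlap, against 9.89% of all genes. Axin2 had a log2 fold change of 0.53 (95% interval -0.06 to 1.12, adjusted p = 0.332, edgeR), which does not show that its levels were alike. For Sp5 the log2 fold change was -1.49 (95% interval -3.52 to 0.54, adjusted p = 0.458, edgeR) from 8 and 13 counts (-0.06 without EpiSC_AFX replicate 1), and a difference was not detectable at this depth. Nkd1 had 0.72 (adjusted p = 0.446, edgeR), Znrf3 -0.20 (0.62), Rnf43 0.06 (0.984) and Notum -0.04 (0.992). The median log2 fold change was -0.04 over the 9 genes, 0.01 over the 8 above the floor and 0.04 over all genes tested.

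**Figure D3:**
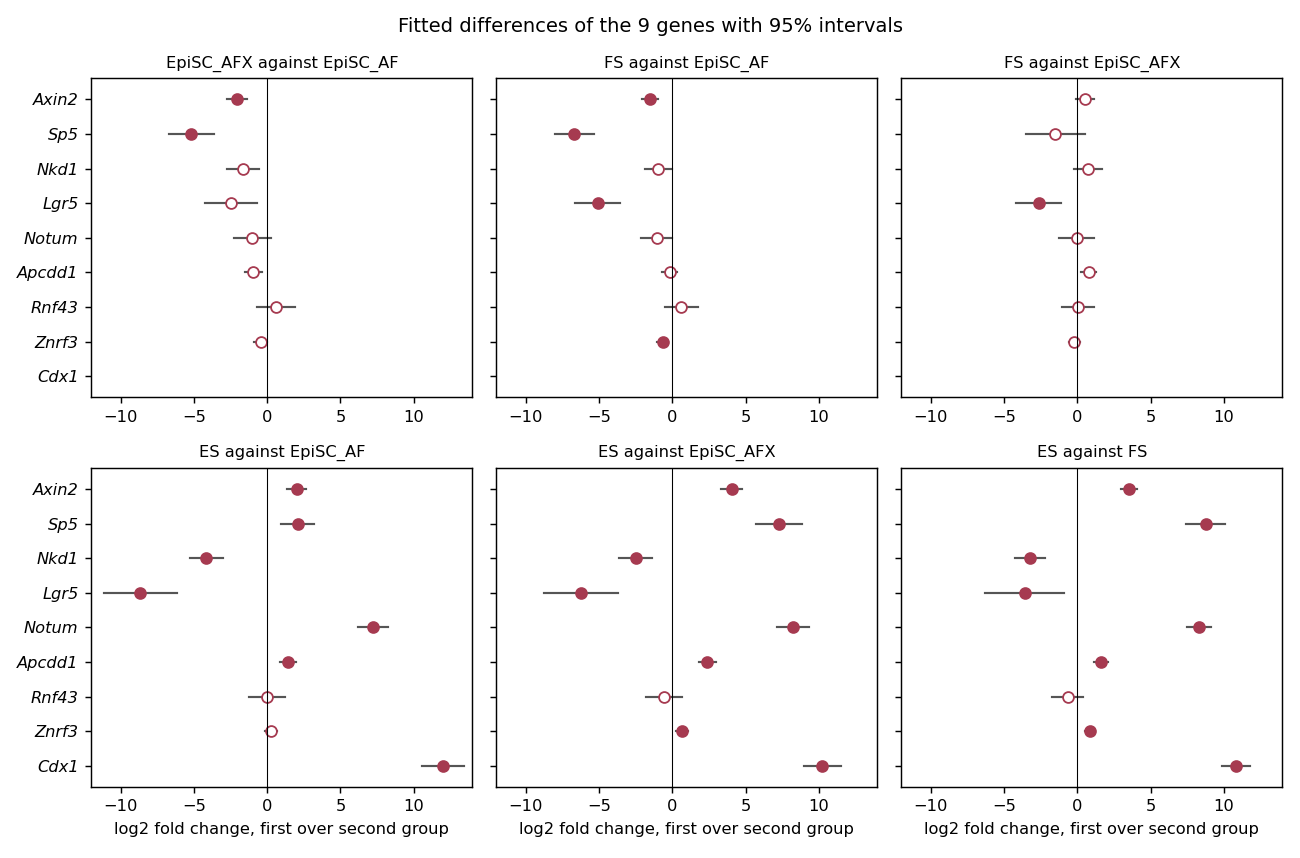
Log2 fold change of each gene in 6 comparisons (first group over second), with 95% intervals from edgeR. Filled points have an adjusted p under 0.05. Against ES, Lgr5 and Nkd1 lie to the left and Axin2, Sp5, Notum, Apcdd1 and Cdx1 to the right in all 3 panels, while Rnf43 is open throughout. Cdx1 is not drawn where both groups were at or under the floor, and its points in the ES panels, like those of Lgr5, rest on 0 to 3 counts in 1 group.

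ES cells in 2iL, whose medium holds a GSK3 inhibitor, differed from all other groups in most of the 9 genes and in both directions. Axin2, Sp5, Notum, Apcdd1 and Cdx1 were higher in ES than in each of the 3 other groups, and Nkd1 and Lgr5 were lower than in each. Cdx1 passed the filter on low counts only through ES, the group where it is high, so its calls are not separate from that filter. Znrf3 was called higher than in EpiSC_AFX and FS, and Rnf43 was not called in any of the 3. Against EpiSC_AF 7 genes were called, 5 higher and 2 lower, on a background of 56.7% of all genes, 27.0% higher and 29.7% lower. Against EpiSC_AFX 8 were called, 6 higher and 2 lower, on a background of 54.7%, 26.2% higher and 28.5% lower. Against FS 8 were called, 6 higher and 2 lower, on a background of 62.8%, 29.9% higher and 32.9% lower. The called genes were also the ones whose libraries did not overlap: 7 against EpiSC_AF, 8 against EpiSC_AFX and 8 against FS, with backgrounds of 62.3%, 58.7% and 46.3%. Most genes of the table were called in each, so the counts alone say little about these genes. The median log2 fold change of the 9 genes was 1.45, 2.40 and 1.62, where over all genes it was -0.01, -0.01 and -0.04. The 3 comparisons share the ES libraries.

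The sizes set the genes apart. Notum had a mean of 63.4 ± 10.3 CPM (SD, n = 4) in ES, and its log2 fold change was 7.22 against EpiSC_AF (95% interval 6.19 to 8.25, adjusted p = 1.98e-09, edgeR), 8.23 against EpiSC_AFX and 8.28 against FS. Cdx1, with 1594 counts in ES, was at least 582-fold higher than in EpiSC_AF, taking 3 counts over the group as the floor. From the 1 count in FS its ratio was 3156, with a 95% counting interval of 566 to 124749. Sp5 was 8.76 higher than in FS on the log2 scale (95% interval 7.45 to 10.07, adjusted p = 1.96e-09, edgeR) and 7.27 higher than in EpiSC_AFX (8.69 without EpiSC_AFX replicate 1). Against EpiSC_AF Sp5 differed by only 2.08 (95% interval 0.97 to 3.19, adjusted p = 0.00271, edgeR), or 3.01 without EpiSC_AF replicate 2. Axin2 was 2.01 higher than in EpiSC_AF (95% interval 1.38 to 2.64, adjusted p = 2.08e-05, edgeR), 4.06 higher than in EpiSC_AFX and 3.53 higher than in FS. Apcdd1 was higher by 1.45, 2.40 and 1.62 in the same order.

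Nkd1 and Lgr5 are feedback genes of the same pathway and were at their lowest in ES. Nkd1 had a mean of 0.656 ± 0.428 CPM (SD, n = 4) in ES, with log2 fold changes of -4.15 against EpiSC_AF (95% interval -5.29 to -3.02, adjusted p = 4.77e-06, edgeR), -2.49 against EpiSC_AFX and -3.21 against FS. Lgr5 rested on 3 counts in ES, and its level in EpiSC_AF was 459 times as high (95% counting interval 157 to 2228). The ratio was 84.1 for EpiSC_AFX (28.5 to 411) and 13.1 for FS (4.33 to 65.0). Against FS the Lgr5 call (log2 fold change -3.59, adjusted p = 0.0224, edgeR) was lost without FS replicate 4 (0.0554), ES replicate 1 (0.0561) or ES replicate 3 (0.0614). It was also lost with line 5ar1 alone (log2 fold change -2.69, adjusted p = 0.173, edgeR), with no filter on low counts (0.0633) and in a test against a log2 change of 1 (0.0652). Against EpiSC_AFX the Lgr5 log2 fold change of -6.21 became -3.74 without EpiSC_AFX replicate 1 (adjusted p = 0.00544, edgeR). Znrf3 was higher by 0.68 against EpiSC_AFX (95% interval 0.27 to 1.10, adjusted p = 0.00730, edgeR), which was lost under scaling by total counts (0.145), and by 0.89 against FS (95% interval 0.54 to 1.23, adjusted p = 1.39e-04, edgeR). Against EpiSC_AF it had 0.24 (95% interval -0.17 to 0.65, adjusted p = 0.308, edgeR). For Rnf43 the log2 fold change was -0.00 against EpiSC_AF (95% interval -1.24 to 1.23, adjusted p = 0.997, edgeR), -0.58 against EpiSC_AFX (0.418) and -0.64 against FS (0.282). Without ES replicate 1, the library with the high mt-Rnr2 share, 7, 8 and 7 genes were called against EpiSC_AF, EpiSC_AFX and FS.

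The FS lines 5ar1 and 5ar3 were grown in the same medium and were compared with each other. Their passages differed as well, so line and passage cannot be fully told apart in the differences below. No gene of the 9 was called by edgeR, where 3.88% of all genes were called, 1.86% higher and 2.02% lower in 5ar1. Of the 9 genes 2 had an unadjusted p under 0.05, and DESeq2 called 1, Nkd1 (adjusted p = 0.0449). Nkd1 stood at 4.78, 4.11 and 2.27 CPM in 5ar1 and at 11.5, 8.62 and 6.12 CPM in 5ar3, a log2 fold change of -1.24 (95% interval -2.11 to -0.36, adjusted p = 0.117, edgeR). Lgr5 was at 0.222, 0.319 and 0.237 CPM in 5ar1 and at 1.29, 0.405 and 0.471 CPM in 5ar3 (log2 fold change -1.47, adjusted p = 0.468, edgeR; -0.75 without FS replicate 4). Notum was at 0.111, 0.159 and 0 CPM in 5ar1 and at 0.304, 0.258 and 0.424 CPM in 5ar3 (log2 fold change -1.78, adjusted p = 0.123, edgeR; -2.51 without FS replicate 2). In these 3 genes every 5ar3 library lay above every 5ar1 library, and 18.7% of all genes did not overlap between the lines. The endoderm sum was 7.22 to 10.8 CPM in 5ar3 and 0.510 to 1.39 CPM in 5ar1. The neural sum was 135 to 165 CPM in 5ar3 and 85.3 to 95.7 CPM in 5ar1, and the fibroblast sum 27.5 to 35.4 CPM and 15.4 to 20.7 CPM. The part of these markers was not tested. Axin2 had a log2 fold change of -0.24 (95% interval -0.90 to 0.43, adjusted p = 0.735, edgeR) and Rnf43, whose highest libraries came 1 from each line, one of -0.13 (95% interval -1.43 to 1.17, adjusted p = 0.945, edgeR), which was -1.44 without FS replicate 1 and 0.88 without FS replicate 5.

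Around these genes, 94 other genes of the pathway were followed in 6 lists, of which 82 passed the filter on low counts. Between EpiSC_AFX and EpiSC_AF 9 of the 82 were called, 8 of them lower with X, where 4.26% of all genes were called and 2.83% were called lower. Of 12 other target genes 4 were lower. Mixl1, a homeobox gene of the streak, had a log2 fold change of -4.01 (adjusted p = 0.00200, edgeR) and T, the mesoderm factor also called brachyury, one of -3.99 (0.0208). The homeobox gene Msx1 had -3.28 (adjusted p = 0.0330, edgeR) and Sp8, a relative of Sp5, -2.40 (0.00789). Of 14 ligand and secretion genes 1 was lower, Wnt3a (log2 fold change -5.02, adjusted p = 0.0243, edgeR). Wnt3a had a mean under 1 CPM in both groups, so its fold rests on a low level. Of 17 receptor and agonist genes 2 were lower, the R-spondin Rspo3 (log2 fold change -2.40, adjusted p = 0.0149, edgeR) and the Frizzled receptor Fzd2 (-0.98, 0.00229). Of 12 secreted inhibitors 1 was lower, Sfrp4 (log2 fold change -1.64, adjusted p = 0.0305, edgeR). The 1 gene that was higher was Dvl2, a Dishevelled, by 1.02 (adjusted p = 0.00268, edgeR); it was the only one called of 14 genes of the destruction complex and its regulators. Of the 13 nuclear partners 0 were called by edgeR, 1 had an unadjusted p under 0.05 and DESeq2 called 1.

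**Figure D4:**
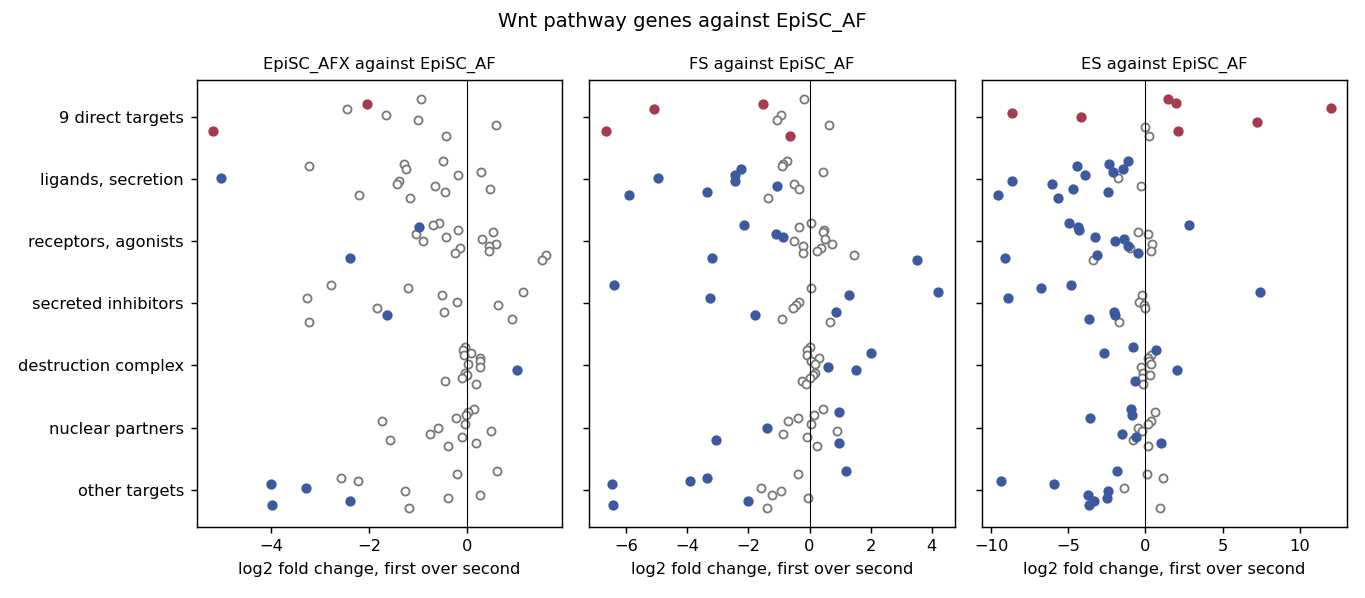
Log2 fold change of every tested pathway gene against EpiSC_AF, for EpiSC_AFX, FS and ES, by list. Each point is 1 gene and filled points have an adjusted p under 0.05 (edgeR); points are spread vertically for legibility, and the top row shows the 9 genes (8 where Cdx1 was at the floor). The ligand row lies mostly to the left in ES, where 12 of 14 were called lower, while 5 of the 9 target genes were called higher. Over all genes 29.7% were called lower in ES and 27.0% higher.

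Ligand genes were among those lower in FS than in both kinds of EpiSC. Of the 14 tested ligand and secretion genes edgeR called 7 as lower in FS against EpiSC_AF, where 8.81% of all genes were. Against EpiSC_AFX it called 3 as lower, where 2.10% of all genes were. Wnt3, a ligand of the streak, stood at 8.33, 23.4 and 8.99 CPM in EpiSC_AF, at 14.8, 9.93 and 11.2 CPM in EpiSC_AFX, and at 1.27 to 6.47 CPM in FS. Its log2 fold change in FS was -2.44 against EpiSC_AF (adjusted p = 0.00114, edgeR) and -2.26 against EpiSC_AFX (0.00732), and between the EpiSCs it was -0.18 (0.921). Wnt8a, another streak ligand, stood at 36.6, 44.9 and 9.80 CPM in EpiSC_AF and at 12.6, 5.96 and 1.12 CPM in EpiSC_AFX, and did not exceed 1.08 CPM in FS. Its log2 fold change in FS was -5.92 against EpiSC_AF (adjusted p = 1.12e-04, edgeR) and -3.71 against EpiSC_AFX (0.0116). Wnt7b had log2 fold changes of -3.37 and -2.91 in FS in the same order (adjusted p = 1.87e-04 and 0.00263, edgeR).

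Secreted inhibitors went both ways. The Wnt antagonist Dkk1 stood at 29.6, 64.3 and 20.9 CPM in EpiSC_AF, at 16.1, 0.393 and 0.203 CPM in EpiSC_AFX and at 0 to 1.51 CPM in FS, and its log2 fold change in FS against EpiSC_AF was -6.42 (adjusted p = 6.63e-04, edgeR). Its relative Dkk3 was higher in FS, by 4.22 against EpiSC_AF (adjusted p = 7.35e-05, edgeR) and 3.09 against EpiSC_AFX (0.00140). Over all 6 lists, the comparison of FS with EpiSC_AF called 31 of 82 genes (10 higher and 21 lower in FS) and that with EpiSC_AFX called 12 (6 and 6). The backgrounds were 16.6% (7.84% higher and 8.81% lower) and 5.00% (2.89% and 2.10%). Among the other targets T was lower in FS than in EpiSC_AF (log2 fold change -6.44, adjusted p = 5.15e-05, edgeR), as were Mixl1 (-6.46, 2.15e-06) and Fgf8, a signalling factor of the streak (-3.91, 0.00281). Apc2, a relative of the scaffold Apc, was higher in FS by 2.01 against EpiSC_AF (adjusted p = 2.58e-04, edgeR) and by 1.94 against EpiSC_AFX (0.00133).

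In ES most ligands and receptors were called lower, where 29.7%, 28.5% and 32.9% of all genes were called lower against EpiSC_AF, EpiSC_AFX and FS. Of the 14 ligand and secretion genes 12 were lower than in EpiSC_AF, 9 lower and 1 higher than in EpiSC_AFX, and 8 lower and 2 higher than in FS. Of the 17 receptor and agonist genes 10, 11 and 11 were lower and 1, 2 and 2 higher in the same order. Against EpiSC_AF, Wnt4 had a log2 fold change of -8.67 (adjusted p = 4.12e-07, edgeR), Rspo3 -9.12 (4.18e-08), Fzd1 -4.96 (3.83e-09), Fzd2 -4.39 (6.96e-12) and Lef1, a nuclear partner of beta-catenin, -3.60 (1.98e-06). Dkk3 was higher, by 7.40 (adjusted p = 1.36e-08, edgeR). Fzd10, a Frizzled, was higher in ES than in FS by 4.94 (adjusted p = 3.27e-10, edgeR). The target T stood at 3.57 to 12.6 CPM in ES, below EpiSC_AF (log2 fold change -3.64, adjusted p = 0.00124, edgeR) and above FS (2.80, 0.00334). Beside Axin2 and Sp5, which were highest in ES, 8 of the 12 other targets were called lower in ES than in EpiSC_AF.

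Of the 14 genes of the destruction complex and its regulators, edgeR called 5 in ES against EpiSC_AF (2 higher and 3 lower), 7 against EpiSC_AFX (3 and 4) and 8 against FS (4 and 4). Over all genes 56.7%, 54.7% and 62.8% were called in the same order, so these counts alone say little about the list. Ctnnb1, which encodes beta-catenin, and Gsk3b were called in 0 of the 7 comparisons by edgeR and by DESeq2. Ctnnb1 had an unadjusted p under 0.05 in 1 of them and Gsk3b in 0, and the fold changes of Ctnnb1 lay between -0.13 and 0.34 on the log2 scale. Axin1, the scaffold that is not itself a target, was higher in ES than in EpiSC_AFX (log2 fold change 0.45, adjusted p = 0.0335, edgeR) and than in FS (0.46, 0.00967). Tnks, a tankyrase and so a target of X, was lower in ES than in EpiSC_AF (-0.68, adjusted p = 0.00729, edgeR) and than in FS (-0.43, 0.0376), and its relative Tnks2 was lower in ES than in EpiSC_AFX (-0.32, adjusted p = 0.0369, edgeR). Between EpiSC_AFX and EpiSC_AF the log2 fold change was -0.46 for Tnks (adjusted p = 0.268, edgeR) and 0.17 for Tnks2 (0.565).

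The genes most like Axin2 across the 16 libraries were found by Pearson correlation of log2 CPM. The search covered 14796 tested genes with a mean of at least 1 CPM over all libraries, the 9 genes left out. Those with the highest r were Lifr (r = 0.979), Gm7972 (0.978), Kit (0.976), Catip (0.971) and Myom2 (0.964). Outside ES no group mean exceeded 0.771 CPM for Catip or 0.729 CPM for Myom2, so these passed that limit only through ES. Lifr, a subunit of the LIF receptor, had means of 171 ± 28.7 CPM (SD, n = 4) in ES, 27.6 ± 8.54 CPM (SD, n = 3) in EpiSC_AF, 14.46 ± 3.05 CPM (SD, n = 6) in FS and 11.1 ± 3.59 CPM (SD, n = 3) in EpiSC_AFX. The libraries share lines and media, so these values describe a common order of the groups. Without the 4 ES libraries (n = 12) r was 0.95 for Lifr, 0.927 for Gm7972, 0.885 for Kit, 0.882 for Catip and 0.839 for Myom2, the last 2 from low levels. Among the 9 genes r with Axin2 over 16 and over 12 libraries was 0.951 and 0.882 for Sp5, -0.598 and 0.857 for Nkd1, -0.273 and 0.816 for Lgr5, and 0.804 and 0.634 for Znrf3. It was 0.917 and 0.53 for Notum, 0.903 and 0.549 for Apcdd1, 0.882 and -0.170 for Cdx1, and -0.183 and -0.078 for Rnf43. The values over 12 libraries also hold the differences between the 3 groups.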

How the data were processed

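RNA was extracted from cultured mouse cells and made into directional RNA-seq libraries, per the labels' protocols. The deposited table gives raw counts per gene, and per the submitters' processing notes reads were handled with Trim Galore, TopHat2 2.1.0 and featureCounts 1.5.0 on mm10; the roles, annotation release and strand setting are not given in the sources used here. Another 6 columns of the table matched no sample and were not used. Groups came from the labelled medium and cell type. Counts were tested with edgeR 4.0.16 (R 4.3.3): TMM scaling, filterByExpr, a robust quasi-likelihood fit with 1 mean per group over all 16 libraries (per line for the FS lines), and Benjamini-Hochberg adjustment over 18555 genes, called at an adjusted p under 0.05. CPM are on the TMM scale; CPM per kb divide by merged GENCODE M21 exon length. A floor of 3 counts summed over a group and exact intervals for ratios of counts cover counting error only. No 2 libraries of a line agreed within sampling noise (lowest chi-square per degree of freedom 8.40). Depth was 22069338 to 33290250 counts per library. Alternatives were other scaling, filters, a passage covariate, fits on fewer groups or 1 FS line, a test against a log2 change of 1, DESeq2 1.42.0, and leaving out each library. All 9 genes are named. From each pathway list and comparison, the 3 called genes of largest change with a mean of at least 1 CPM could be named, plus Ctnnb1, Axin1, Tnks, Tnks2, Gsk3b, Wnt3, Wnt8a and T; Wnt3a and Sp8 were named after their values were seen, as were the per-library values of Dkk1 and Cer1 and the chromosome 11 medians. The genes, lists and tests were chosen with earlier results of these data known. The edgeR script was tested on simulated data.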

Additional observations from a re-analysis of the deposited data

Results flagged for a closer look

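Within FS, Lgr5 stood at 1.29 CPM in replicate 4 (line 5ar3, passage 12), well apart from the next library at 0.471 CPM and from the lowest at 0.222 CPM. The same library had the highest Axin2, Nkd1 and Znrf3 levels of the group and the highest endoderm sum of FS, 10.8 CPM. Chance gives such a gap in about 1 in 20 groups when the values come from 1 normal distribution. Each of the 9 genes was examined in FS and in ES. FS pools both lines, and Lgr5 was higher in every 5ar3 library than in any 5ar1 library, so that rate need not hold. Cdx1 stood at 0.0319 CPM in FS replicate 2 and at 0 in the other 5 FS libraries. This is a single count, which always stands apart in a group otherwise at 0, so that rate does not apply to it.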

How the results depend on the processing

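Of 1022 values recomputed for 59 results, 957 kept their direction and their side of the threshold, 29 lost a call, 8 gained one and 28 changed sign; none of the values that changed sign was called. The causes were not tested. The 2 genes called between EpiSC_AFX and EpiSC_AF became 1 under a test against a log2 change of 1, where Axin2 had adjusted p = 0.0596 (edgeR), and 4 under DESeq2. In the DESeq2 counts a gene without an adjusted p was taken as not called. Between the EpiSCs Lgr5 and Notum had an adjusted p in 14 alternative settings and Axin2 in 15. The 4 called between FS and EpiSC_AF became 2 under the test against a log2 change of 1. The 1 gene called between FS and EpiSC_AFX, Lgr5, became 0 with total counts, with no filter on low counts, with a mean of at least 1 CPM, with passage as a covariate, with the 2 groups alone, with either FS line alone and in the test against a log2 change of 1. Leaving out single libraries gave 0 to 1 there. Between the FS lines DESeq2 called 1 gene where edgeR called 0.

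Changes of sign were found in genes that were not called. For Rnf43, passage as a covariate gave log2 fold changes of -0.048 (EpiSC_AFX against EpiSC_AF), -0.074 (FS against EpiSC_AF), -0.025 (FS against EpiSC_AFX), 0.069, 0.12 and 0.14 (ES against EpiSC_AF, EpiSC_AFX and FS) and 0.79 (FS lines). Line 5ar1 alone gave Rnf43 -0.0031 and Nkd1 -0.028 in FS against EpiSC_AFX, and DESeq2 gave Rnf43 0.0046 in ES against EpiSC_AF. Notum in FS against EpiSC_AFX became 0.083 with total counts, 0.0021 with passage and 0.64 with line 5ar3 alone.

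Leaving out single libraries gave Rnf43 log2 fold changes of -0.29 to 0.24 in FS against EpiSC_AFX, -0.18 to 0.21 in ES against EpiSC_AF and -1.44 to 0.88 between the FS lines. It gave Apcdd1 -0.36 to 0.058 in FS against EpiSC_AF and -0.26 to 0.051 between the FS lines, and Notum -0.33 to 0.24 in FS against EpiSC_AFX.

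Scaling by total counts moved the median of all genes to 0.13 in FS against EpiSC_AF, 0.16 in FS against EpiSC_AFX, and -0.29, -0.25 and -0.40 in ES against EpiSC_AF, EpiSC_AFX and FS; no called gene of the 9 changed sign. Over all genes, the number called ranged from 102 to 2276 around 791 between the EpiSCs, 682 to 3837 around 3089 for FS against EpiSC_AF, 158 to 1765 around 927 for FS against EpiSC_AFX, and 128 to 1567 around 720 between the FS lines. No paired analysis was possible because the replicate numbers are names given in accession order and pair no samples. Depth limits Sp5 in FS and EpiSC_AFX, Notum outside ES, Lgr5 in ES and Cdx1 outside ES, all at few counts.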
